A study of Mus musculus with 4 samples.

Results

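The neurons described here are vmPFC excitatory neurons with the retrograde barcodes of AI (agranular insular cortex) and DMS (dorsomedial striatum) above threshold. The barcodes of the other injected targets were at or below their thresholds, which does not mean that they were absent. Members were chosen on the deposited barcode UMI counts: more than 28 AI UMIs and more than 101 DMS UMIs, with at most 114 UMIs for MD (mediodorsal thalamus), 35 for BLA (basolateral amygdala) and 103 for LH (lateral hypothalamus). The rule found 306 of the 8210 excitatory neurons with a subtype, or 306 of the 720 neurons with more than 1 valid barcode. By library they were 75.5%, 54.4% and 55.2% of such neurons in mice 1, 2 and 3 and 27.02% in the FAC-sorted pool. They were set against 219 neurons with only AI valid and 594 neurons with only DMS valid. The valid calls made with these thresholds were the same as those of the deposited annotation in 41050 of 41050 comparisons.

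The data come from MERGE-seq, which reads a virus barcode and the transcriptome of the same cell. Male C57BL/6 mice received rAAV2-retro viruses at 8 weeks of age, each virus carrying EGFP and the barcode of its target under a CAG promoter, and all 5 targets (AI, DMS, MD, BLA and LH) were injected in the same mouse. Prelimbic and infralimbic tissue was dissected 6 weeks later. Each of 3 mice gave an unsorted library, and cells of 3 other mice, sorted for EGFP, were pooled into a FAC-sorted library, so that each mouse carried all 5 viruses and no uninjected group was used. A barcode that is valid here means that the virus reached the neuron and was read above threshold, and the sorted pool has no replicate.

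Projections of the prefrontal cortex follow its cell classes. Intratelencephalic neurons, found in all cortical layers that hold projection neurons, send axons to other cortical areas and to the striatum, and a single axon can branch to both. Corticothalamic neurons lie in layer 6 and project to the thalamus, while pyramidal tract neurons of layer 5 project below the cortex, with branches in striatum, thalamus and hypothalamus. A retrograde virus taken up at axon endings therefore labels a neuron with 2 barcodes where its axon reaches both injected areas.

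The values below turn on telling apart the 2 barcodes, which are shown here with the 10 of 15 positions at which they differ in capitals and the 5 positions that they share in lower case.
AI: CTGCAcCGaCGcAtt
DMS: GAAGGcACaGAcTtt
Reads were assigned with up to 2 mismatches, so no read within that distance of AI was also within it of DMS. Over the 4 libraries, 6574823 reads matched the AI barcode exactly and 53687554 matched the DMS barcode exactly. In the AI+DMS neurons, 98.2% ± 0.817 (SD, n = 3 mice) of the AI reads and 98.0% ± 0.778 of the DMS reads in the unsorted libraries were exact matches. The deeper DMS signal in reads was also seen in UMI counts.

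The 4 libraries held different numbers of AI+DMS neurons. Mouse 1 had 40, mouse 2 had 68, mouse 3 had 101 and the FAC-sorted pool had 97. They made up 1.64% of the neurons of mouse 1 (95% Clopper-Pearson interval 1.17 to 2.23), 3.17% of mouse 2 (2.47 to 4.00), 4.77% of mouse 3 (3.90 to 5.76) and 6.45% of the FAC-sorted pool (5.26 to 7.81). The intervals cover counting error only, and those of mouse 1 do not overlap the intervals of any other library. The shares leave out 99, 81, 47 and 0 further cells of the AI+DMS pattern in mice 1, 2 and 3 and the FAC-sorted pool, which the joined matrix lacks and which have no subtype. Together with the neurons they make 139, 149, 148 and 97 cells, so the order of the 3 mice in number is that of the analysed neurons only. The projectome libraries also differed in depth, with 2542 reads per recovered cell in mouse 1, 4115 in mouse 2, 4544 in mouse 3 and 14639 in the FAC-sorted pool.

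Of the neurons in which DMS was valid alone or together with AI, 21.3% in mouse 1, 37.4% in mouse 2 and 48.6% in mouse 3 also had AI, which gives 35.7% ± 13.7 (SD, n = 3). The FAC-sorted value was 30.1%. Read from the other side, of the neurons with AI valid alone or together with DMS, 35.7% in mouse 1 also had DMS. The share was 56.2% in mouse 2, 68.7% in mouse 3 and 66.9% in the FAC-sorted pool. Over the 3 unsorted mice it was 53.5% ± 16.7. Neurons with MD, BLA or LH valid are in neither share, here or below. In each library the share was larger among AI neurons than among DMS neurons, since DMS only was the larger of the 2 classes with 1 target. The reads of every library were also thinned to the reads per recovered cell of mouse 1, with the thresholds kept. The share of DMS neurons with AI was then 21.3% in mouse 1, 18.8% in mouse 2, 27.4% in mouse 3 and 8.26% in the FAC-sorted pool. The number of AI+DMS neurons was then 120 instead of 306, with 40, 27, 43 and 10 per library in the same order. Before thinning, a combination of cell, UMI and barcode had a mean of 29.3, 37.9, 38.5 and 41.7 reads by library. These means were closer than the reads per recovered cell, and the FAC-sorted pool was thinned most. The thinned libraries are thus not at equal depth per UMI, and thinning can lower a count but not raise it.

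The AI+DMS neurons came mostly from 3 subtypes of the deposited annotation. L5-S100b, a layer 5 subtype named for a calcium-binding protein, gave 137 of the 306. L6-Npy, a layer 6 subtype named for the gene of neuropeptide Y, gave 90, and L2/3-Rorb, named for a nuclear receptor of upper cortical layers, gave 61. L6-Syt6, named for a synaptotagmin that marks layer 6 corticothalamic cells, gave 14. L2/3-Calb1 gave 3, L5-Bcl6 gave 1 and L5-Htr2c gave none, where 320 L5-Htr2c neurons were recorded, which limits the share of that subtype carrying the pattern to 0.938% (counting error only, over cells pooled from the 4 libraries).

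Within a library, L5-S100b made up 55.0% of the AI+DMS neurons in mouse 1, 42.6% in mouse 2, 35.6% in mouse 3 and 51.5% in the FAC-sorted pool. Among neurons with only DMS valid, the L5-S100b share was 31.8%, 31.6%, 29.9% and 33.8% in the same order. L5-S100b was more frequent among AI+DMS neurons than among DMS only neurons in 4 of 4 libraries, by a mean of 14.5 percentage points ± 7.65 (SD over 4 libraries). An exact two-sided sign-flip permutation test over the 4 libraries gave p = 0.125 (adjusted p = 0.338 over 27 tests). That is the smallest p which 4 libraries can give, so this design cannot pass a threshold of 0.05. The mean difference was 6.91 points (higher in 3 of 4 libraries) with thresholds taken from the non-neuronal cells alone, which were lower than the study's. It was 7.61 with reads thinned to the reads per recovered cell of mouse 1 (3 of 4). Without the neurons deepest in RNA it was 9.06 (4 of 4). It was 10.1 with all thresholds 1.5 times as high (2 of 4) and 9.14 with UMIs of at least 2 reads, where 1 of the 3 libraries with a value was higher.

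L6-Syt6 showed the opposite order. By mouse it made up 5.00% (2 of 40), 4.41% (3 of 68) and 3.96% (4 of 101) of the AI+DMS neurons. It made up 5.15% (5 of 97) in the FAC-sorted pool and 4.46% ± 0.521 over the 3 mice, shares that rest on few neurons. Among DMS only neurons its share was 14.9%, 13.2%, 6.54% and 13.3%, above the AI+DMS share in each library, with a mean difference of -7.34 percentage points ± 3.25 (p = 0.125, exact sign-flip permutation test, adjusted p = 0.338). The difference was -3.91 with UMIs of at least 2 reads (lower in 2 of 3 libraries) and -4.46 without the neurons deepest in RNA (lower in 4 of 4). Mouse 3 was the exception with thresholds 1.5 times as high (0.96 points) and with thinned reads (0.27 points), each lower in 3 of 4. L6-Syt6 was the most numerous subtype of the series, with 4819 neurons, of which 14 were AI+DMS. The AI+DMS share of L6-Syt6 neurons was 0.14%, 0.222% and 0.308% in mice 1, 2 and 3 and 0.677% in the FAC-sorted pool, against 7.48%, 15.2%, 18.8% and 18.0% of L5-S100b neurons.

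The minor subtypes of the upper and middle layers were also less frequent among AI+DMS neurons than among DMS only neurons. L2/3-Calb1 held 0, 1, 2 and 0 of the AI+DMS neurons by library, and its share was below that among DMS only neurons in 4 of 4 libraries, with a mean difference of -4.77 percentage points. L5-Bcl6 held 1 AI+DMS neuron, in the FAC-sorted pool, and was also lower in 4 of 4 libraries, with a mean difference of -2.04 percentage points. Among DMS only neurons, L2/3-Calb1 held 6, 9, 8 and 7 by library and L5-Bcl6 held 3, 3, 2 and 6. Both differences thus rest on few neurons. L6-Npy and L2/3-Rorb had no common direction: L6-Npy was higher in mouse 2 and mouse 3 and lower in the other 2 libraries (mean difference -1.57 ± 3.31 percentage points), and L2/3-Rorb was likewise higher in mice 2 and 3 (mean difference 1.39 ± 3.46).

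Set against AI only neurons, L5-S100b was 14.7 and 16.2 percentage points more frequent among AI+DMS neurons in mice 1 and 2 and 9.88 in the FAC-sorted pool, but differed by -1.31 points in mouse 3 (mean 9.88 ± 7.94, p = 0.25, exact sign-flip permutation test, adjusted p = 0.519). L6-Npy made up 33.3%, 49.1%, 32.6% and 39.6% of AI only neurons against 20.0%, 33.8%, 33.7% and 25.8% of AI+DMS neurons, a mean difference of -10.3 percentage points ± 7.63, again with mouse 3 as the exception (p = 0.25, exact sign-flip permutation test). The mean L5-S100b difference was 2.07 with thresholds from the non-neuronal cells alone and 16.99 with UMIs of at least 2 reads. The L6-Syt6 shares of the 2 classes overlapped, with a mean difference of -1.44 percentage points ± 3.19. A p above the threshold in 4 libraries does not show that the mixes were alike.

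The same pattern can be read per subtype, as the share of its DMS neurons that also had AI. DMS neurons here are those with DMS valid alone or together with AI. Neurons in which MD, BLA or LH was valid are left out. For L5-S100b this share was 31.9%, 44.6% and 52.9% in mice 1 to 3 (43.1% ± 10.6) and 39.7% in the FAC-sorted pool. For L6-Syt6 it was 8.33%, 16.7% and 36.4% (20.5% ± 14.4) and 14.3%, resting on 2, 3, 4 and 5 AI+DMS neurons. L5-S100b was above L6-Syt6 in each library, by 23.6, 27.9, 16.6 and 25.4 percentage points (mean 23.4 ± 4.87, p = 0.125, exact sign-flip permutation test, adjusted p = 0.338). The mean difference was 12.2 points with each UMI that was read with several of the 5 barcodes given to the barcode with most reads (higher in 4 of 4 libraries), 13.3 with thinned reads (3 of 4), 10.7 with thresholds 1.5 times as high (3 of 4, and -5.26 in mouse 3) and 2.29 with UMIs of at least 2 reads (2 of 4).

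L2/3-Rorb and L6-Npy lay between those subtypes when libraries were pooled, with 61 of 170 DMS neurons (35.9%) and 90 of 265 (34.0%). By library the share was 19.5%, 44.4%, 53.2% and 29.1% for L2/3-Rorb and 17.8%, 39.0%, 48.6% and 27.5% for L6-Npy. Within libraries, L5-S100b was above L6-Npy in 4 of 4 and above L2/3-Rorb in 3 of 4, with mouse 3 as the exception, and L2/3-Rorb was above L6-Npy in 4 of 4. These 3 orders were read after the values were seen and were not tested. In all 4 subtypes the share was lowest in mouse 1 among the unsorted libraries and highest in mouse 3. Of L2/3-Calb1, 3 of 33 DMS neurons also had AI (1 of 10 in mouse 2 and 2 of 10 in mouse 3), and of L5-Bcl6, 1 of 15.

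DMS was the stronger barcode in most AI+DMS neurons when UMIs were counted. These counts chose the members, so they are given without a test. The median AI count was 48 in mouse 1, 38 in mouse 2, 41 in mouse 3 and 48 in the FAC-sorted pool, and the median DMS count was 167.5, 198.5, 218 and 259. AI counts ran from 29 to 362 and DMS counts from 102 to 556. AI UMIs outnumbered DMS UMIs in 20 of the 306 neurons, namely 3, 5, 5 and 7 per library.

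AI made up a median of 24.3% of the summed AI and DMS UMIs in mouse 1, 15.7% in mouse 2, 15.6% in mouse 3 and 16.3% in the FAC-sorted pool, or 18.5% ± 5.02 over the 3 mice. Single neurons reached from 6.87% to 70.7%. The balance depends on the scale, because the DMS threshold lies higher than the AI threshold. With each count divided by its own threshold, AI was the stronger barcode in 112 of 306 neurons (36.6%), and by library in 55.0% (22 of 40), 33.8% (23 of 68), 28.7% (29 of 101) and 39.2% (38 of 97). Mouse 1 was the library in which AI exceeded DMS on this scale in most AI+DMS neurons.

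Subtypes could not be ordered by this balance across libraries. In L5-S100b the median AI percent was 27.4 in mouse 1 but 13.9, 13.7 and 13.8 in mice 2 and 3 and the FAC-sorted pool, and AI was the stronger barcode relative to its threshold in 17 of 22 neurons of mouse 1 against 8 of 29, 9 of 36 and 17 of 50 in the others. L6-Npy did not show that step: its median AI percent was 18.8, 20.8, 18.2 and 21.5, and AI was the stronger barcode in 1 of 8, 10 of 23, 10 of 34 and 12 of 25 neurons. L6-Npy was thus above L5-S100b in 3 libraries and below it in mouse 1.

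L2/3-Rorb followed L5-S100b, with median AI percents of 26.1, 13.1, 14.7 and 13.3. The few L6-Syt6 neurons had 16.2, 14.7, 15.5 and 10.5 percent, and AI was stronger relative to its threshold in 3 of 14. The 3 L2/3-Calb1 neurons had between 11.2% and 12.7% AI, whereas the L5-Bcl6 neuron had 152 AI and 150 DMS UMIs. Pooled over libraries the medians were 15.7% for L5-S100b, 19.5% for L6-Npy, 16.4% for L2/3-Rorb and 14.1% for L6-Syt6.

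Within each library, neurons with more AI UMIs had fewer DMS UMIs. Spearman's rho over AI+DMS neurons was -0.15 in mouse 1 (40 neurons), -0.36 in mouse 2 (68), -0.18 in mouse 3 (101) and -0.58 in the FAC-sorted pool (97). The neurons of a library share its depth, and both counts are cut from below by the thresholds. The authors also removed cells with the highest summed barcode UMIs. The joined matrix lacks 99, 81 and 47 cells of the AI+DMS pattern in mice 1, 2 and 3 but 0 in the FAC-sorted pool. The rho values are descriptions of neurons that the counts selected.

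Many AI+DMS neurons lay close to a threshold. In 152 of 306 the AI count was at most 1.5 times its threshold, in 68 the DMS count was, and 102 neurons were beyond 1.5 times for both barcodes (14, 17, 37 and 34 per library). Among neurons with DMS valid and MD, BLA and LH not, the AI count had no gap at its threshold. There were 172 neurons up to 0.5 of the threshold, 422 from there to the threshold, 152 above it up to 1.5 times, 53 up to 2 times, 40 up to 3 times and 61 beyond. In neurons with AI valid and MD, BLA and LH not, the DMS counts were distributed otherwise. There, 70 neurons lay up to 0.5 of the DMS threshold and 149 from there to the threshold, then 68, 75, 110 and 53 in the same steps.

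Neurons with only DMS valid were not free of AI UMIs. None of the 594 had an AI count of 0, their median was 18, and 274 would have passed the AI threshold with a count 1.5 times as high. Neurons in which only MD or only LH was valid had nearly the same medians, 19 (281 neurons) and 18 (176 neurons), and those with only BLA had 15 (60 neurons). By contrast, the median AI count was 3 in the 6160 neurons with no valid barcode and 0 in the 9822 non-neuronal cells, which also hold less barcode RNA in all (median 43 and 6 barcode UMIs). None of the non-neuronal cells had the AI+DMS pattern, which allows a share of up to 0.0305% over the pooled cells. But the study used such cells as 1 of its controls for the thresholds. Its other control was EGFP-negative cells of the sorted pool, and the higher threshold was taken for each barcode. In AI only neurons the median DMS count was 64, within a range of 16 to 101.

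The AI+DMS neurons also held more UMIs of the barcodes that were not valid. Their median MD count was 40, 58.5, 59 and 82 by library, against 29, 37, 39 and 51 in DMS only and 17.5, 23, 27 and 41 in AI only neurons. Median LH counts were 35.5, 46, 43 and 59, against 28, 30, 26 and 35 in DMS only neurons. The sum over all 5 barcodes had a median of 345.5, 400.5, 398 and 483 UMIs, above the 245, 253, 240 and 272 of DMS only neurons. Part of this order is set by the rule, which asks for a minimum in AI and DMS together.

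RNA depth was not used by the rule. The median number of transcriptome UMIs per AI+DMS neuron was 22877 in mouse 1, 22754.5 in mouse 2, 23109 in mouse 3 and 33486 in the FAC-sorted pool. In DMS only neurons it was 21544.5, 20398.5, 23183 and 29531, and in AI only neurons 22426.5, 22675, 24328.5 and 30231. The unsorted medians of AI+DMS neurons thus lay within a narrow range (mean 22914 ± 180, n = 3), and the FAC-sorted library was deeper in each class.

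Within subtypes, the ratio of the median transcriptome UMIs of AI+DMS to DMS only neurons was 1.07 in mouse 1, 1.06 in mouse 2, 1.02 in mouse 3 and 1.14 in the FAC-sorted pool (mean log2 ratio 0.10 ± 0.06, p = 0.125, exact sign-flip permutation test, adjusted p = 0.338). In L5-S100b of the FAC-sorted pool, 50 AI+DMS neurons had a median of 39175 UMIs and 76 DMS only neurons 31590.5, whereas in L6-Syt6 of that pool 5 AI+DMS neurons had 29372 and 30 DMS only neurons 38471.5. Without regard to subtype, the ratios were 1.06, 1.12, 0.997 and 1.13 (mean log2 ratio 0.11 ± 0.08, p = 0.25, exact sign-flip permutation test). The mean log2 ratio within subtypes was above 0 in 4 of 4 libraries under each of these settings, but its size was 0.26 with reassigned shared UMIs, 0.20 with thresholds scaled as well, 0.21 with thinned reads, 0.17 with thresholds 1.5 times as high and 0.05 without the neurons deepest in RNA.

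Compared with AI only neurons, the direction of the depth ratio depended on how barcodes were counted. With the deposited counts and the study thresholds, within subtypes the ratios were 0.977, 0.972 and 0.967 in the 3 mice and 1.18 in the FAC-sorted pool (mean log2 ratio 0.03 ± 0.14, p = 1, exact sign-flip permutation test). With these counts the 3 mice lay below 1 and the FAC-sorted library above. The FAC-sorted value covers L5-S100b and L6-Npy only, while those of the mice also include L2/3-Rorb. In the pool, L2/3-Rorb and L6-Syt6 were left out, with 4 AI only neurons each. Their medians there were 29751.5 in AI+DMS and 31829 in AI only neurons for L2/3-Rorb, and 29372 and 32398.5 for L6-Syt6. In each mouse, L5-S100b and L6-Npy taken alone also had lower medians in AI+DMS than in AI only neurons. The log2 ratio was above 0 in 4 of 4 libraries with reassigned shared UMIs (0.13, 0.15, 0.20 and 0.20, mean 0.17), with thresholds scaled as well (mean 0.15) and with thresholds 1.5 times as high (mean 0.09), so the opposite directions of sorted and unsorted libraries were not found under these 3 settings. The mean was -0.02 without the neurons deepest in RNA.

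Detected genes followed the UMIs. AI+DMS neurons had medians of 5849, 5837, 5854 and 6825 genes, and within subtypes the ratio to DMS only neurons was 1.04, 1.00, 1.00 and 1.04 (higher in 4 of 4 libraries, mean log2 ratio 0.03 ± 0.03, p = 0.125, exact sign-flip permutation test, adjusted p = 0.338). Mitochondrial UMIs made up a median of 7.80%, 7.60%, 7.60% and 4.00% of the transcriptome UMIs of AI+DMS neurons. This was above DMS only neurons in each library, by a mean of 0.27 percentage points ± 0.23, and below AI only neurons in each library, with a mean difference of -0.24 ± 0.17 (p = 0.125 for each, exact sign-flip permutation test). Neither difference had the same sign in all libraries within subtypes. Whether depth had a part in which neurons passed both thresholds was not tested, and 251 AI+DMS neurons were left when, in every library, those past the 90th percentile for RNA depth were taken out.

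Reads were then examined for UMIs found with both barcodes in the same neuron. A UMI marks a single captured molecule, so a molecule can carry AI or DMS but not both, and the deposited counts include such a UMI under each barcode. All 306 AI+DMS neurons had shared UMIs. Of their AI UMIs, 42.5% (1088 of 2561) in mouse 1, 54.0% (2205 of 4083) in mouse 2, 62.0% (3529 of 5691) in mouse 3 and 39.4% (2798 of 7109) in the FAC-sorted pool were also read with DMS. The unsorted mean was 52.8% ± 9.82 (SD, n = 3). Of the DMS UMIs, the shared portion was 16.01% ± 0.117 over the 3 mice and 10.9% among sorted cells. Sharing was not limited to the 2 valid barcodes. Of the AI UMIs of AI+DMS neurons, 26.0%, 37.4%, 46.5% and 34.9% by library were also read with MD, 24.1%, 33.4%, 36.4% and 31.1% with LH, and 7.30%, 13.03%, 14.5% and 14.7% with BLA.

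AI only and DMS only neurons lay on either side. In DMS only neurons 84.5% ± 1.76 of the AI UMIs were shared with DMS over the 3 mice and 64.1% after sorting. In AI only neurons this was 31.6% ± 2.91 and 22.0%. The order AI only, AI+DMS, DMS only was the same in each library. The rule bears on this order, since it caps the AI count of DMS only neurons and the DMS count of AI only neurons. As a share of the DMS UMIs, the order was reversed in each library. Over the 3 mice, 40.4% ± 1.11 of the DMS UMIs were shared with AI in AI only neurons and 9.91% ± 1.30 in DMS only neurons. After sorting these shares were 15.3% and 6.45%.

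The reads behind a shared UMI were seldom even. In AI+DMS neurons DMS had more reads in 52.8%, 66.0%, 72.9% and 60.9% of shared UMIs by library, AI had more in 46.0%, 32.7%, 25.9% and 36.3%, and the rest were tied. In DMS only neurons DMS had more reads in 97.1% ± 0.841 of shared UMIs over the 3 mice, and in AI only neurons AI had more reads in 88.5% ± 1.21. Shared UMIs also held most AI reads of AI+DMS neurons, 89.4% ± 6.40 over the 3 mice and 94.4% after sorting. An AI UMI not shared with DMS had a mean of 11.3, 8.11, 5.02 and 5.03 reads by library, against 71.1, 72.2, 54.2 and 130 for a shared AI UMI. Of all AI UMIs in AI+DMS neurons, 56.5% ± 0.917 over the 3 mice and 56.8% after sorting rested on 1 read.

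Sharing differed between subtypes without a common order. In mouse 1, 39.3% of the AI UMIs of L5-S100b neurons were shared and 57.8% of those of L6-Npy neurons, whereas in mouse 2 the values were 59.1% and 48.3%, in mouse 3 65.8% and 60.2%, and in the FAC-sorted pool 43.3% and 36.8%. L2/3-Rorb neurons had 41.7%, 51.8%, 58.5% and 35.3%. The DMS UMIs of these 3 subtypes were shared at 9.60% to 18.3%.

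When each UMI read with more than 1 of the 5 barcodes was given to the barcode with most reads, 98 of the 306 neurons (32.0%) still passed both study thresholds. These were 18 of 40 in mouse 1, 18 of 68 in mouse 2, 18 of 101 in mouse 3 and 44 of 97 in the FAC-sorted pool. A further 178 neurons (58.2%) became DMS only, 29 became AI only and 1 had no valid barcode. The median AI count of the 306 was then 32.5, 13, 10 and 32 by library, and the median DMS count was 149.5, 192, 207 and 240. The step can lower a count but not raise it.

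Pooled over libraries, 50 of 137 L5-S100b neurons (36.5%), 30 of 90 L6-Npy (33.3%) and 15 of 61 L2/3-Rorb (24.6%) stayed AI+DMS after this step. So did 2 of 14 L6-Syt6 neurons and the L5-Bcl6 neuron. By library the share was 59.1%, 24.1%, 16.7% and 48.0% for L5-S100b and 25.0%, 34.8%, 17.6% and 56.0% for L6-Npy. For L2/3-Rorb it was 37.5%, 25.0%, 20.0% and 25.0%. The pooled order of these subtypes was thus found in none of the 4 libraries. With the 9 neurons that entered the class after losing a further valid barcode (MD, BLA or LH), L5-S100b made up 51.4% of the 107 AI+DMS neurons then found and L6-Syt6 1.87%. The L5-S100b share exceeded that of DMS only neurons by a mean of 14.6 percentage points ± 17.7 over the 4 libraries (0.73 in mouse 2 and 39.5 in mouse 1).

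The study thresholds were set on counts that include shared UMIs, and the step lowered the counts of non-neuronal cells as well. The count that 0.1% of those cells exceeded went from 23 to 11 UMIs for AI, from 82 to 62 for DMS, from 10 to 5 for BLA and from 40 to 23 for LH, and stayed at 71 for MD. The change was not measured in the EGFP-negative sorted cells, the study's other control. Each threshold was then scaled by its own barcode's change, to 13.4 for AI, 76.4 for DMS, 17.5 for BLA and 59.2 for LH, with MD kept at 114, so that all 5 thresholds bear on which neurons count. With these thresholds, a choice made after seeing the data, 222 neurons were AI+DMS, of which 157 were among the 306 (51.3% of the 306 and 70.7% of the 222). They were 44, 36, 48 and 94 by library, and 44 of the 94 in the FAC-sorted pool were not AI+DMS before. The share of DMS neurons with AI was then 18.7%, 16.7% and 18.6% in the 3 mice (18.0% ± 1.11) and 20.0% in the FAC-sorted pool, a smaller spread between mice than the 35.7% ± 13.7 of the deposited counts. L6-Syt6 made up 2.70% of these 222 neurons, and the L5-S100b share differed from that of DMS only neurons by a mean of 11.9 percentage points ± 7.44.

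Of all cell barcodes 82 occurred in more than 1 library, and 3 of the 306 AI+DMS neurons had such a barcode. The transcriptome counts per gene were not analysed here, so the subtypes are those of the deposited annotation and were not checked against marker genes.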

How the data were processed

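The members and the classes they are compared with were chosen with earlier results of these data known. Per the labels and the study's methods, the authors dissected PrL and IL, made 10x Genomics v3 libraries, aligned them with Cell Ranger to mm10, and amplified the virus barcodes by targeted PCR into a projectome library. The deposited barcode tables hold the count of UMIs per cell and barcode, made by the authors with a modified deMULTIplex at up to 2 mismatches, with no normalization. A count of 1 for DMS, MD, BLA or LH is deposited as 0, which changed 2111 of 41050 values and no AI or DMS count in the 3 classes. Before joining the libraries, the authors left out those beyond the 95th percentile in total barcode UMIs. The deposited annotation gives transcriptome UMI counts, detected genes, subtypes and, as the authors computed it, the percent of UMIs from mitochondrial genes. Series-wide tables held 26 further columns, which were not used.

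Here the thresholds were read from the joined matrix as the highest count set to 0, and UMIs were recounted from the deposited reads, 20443286 to 32895529 per library. The analysis used Python 3.11.15, pandas 2.3.3, numpy 2.4.6 and scipy 1.17.1, and was tested on simulated data. The unsorted mice give mean and SD, and no test used cells as replicates. Binomial intervals and limits for a count of 0 are over cells and cover counting error only. Differences within library were tested over the 4 libraries by an exact two-sided sign-flip permutation test, with Benjamini-Hochberg adjustment over 27 tests. Comparisons within subtype used subtypes with at least 5 neurons in both classes, weighted by the number of AI+DMS neurons. Counts used by the rule were not tested. No doublet caller was run. Items named were both barcodes, the 4 libraries, the 7 subtypes and the 3 classes, with the other barcodes only for their counts in these neurons. Alternatives were other thresholds, exact matches, UMIs with at least 2 reads, reassigned shared UMIs (over all 5 barcodes), thinned reads, left-out deep neurons and left-out libraries.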

Additional observations from a re-analysis of the deposited data

Results flagged for a closer look

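Within subtypes, transcriptome UMIs of AI+DMS over AI only neurons gave a log2 ratio of 0.24 in the FAC-sorted pool, while the 3 unsorted mice lay between -0.05 and -0.03 (mean -0.04 ± 0.01), so every unsorted mouse went the opposite way with the deposited counts. With shared UMIs given to the barcode with most reads the mice were at 0.13, 0.15 and 0.20 and the FAC-sorted pool at 0.20, and with thresholds 1.5 times as high at 0.06, 0.17 and 0.0049 and the pool at 0.12, all in the same direction. The difference between sorted and unsorted libraries was not tested, since the sorted pool is 1 library. With the deposited counts, the value of the pool covers L5-S100b and L6-Npy only, while those of the mice also include L2/3-Rorb. The percent of mitochondrial UMIs, compared in the same manner within subtypes, was 0.241 percentage points higher in AI+DMS than in AI only neurons of the FAC-sorted pool and differed by -0.468 to -0.134 in the unsorted mice, which was not tested either.

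The AI+DMS pattern also occurred outside the analysed neurons, mainly among cells that the joined matrix lacks. The authors removed cells with high barcode counts before joining, but which of the missing cells were left out for that reason was not determined. Of these 1243 cells, 227 had the pattern, with 99 in mouse 1, 81 in mouse 2, 47 in mouse 3 and 0 in the FAC-sorted pool. Their median counts were 57 for AI and 340 for DMS, against 43 and 213 in the 306 neurons. In mouse 1 these missing cells outnumbered the 40 neurons analysed, and in mouse 2 the 68 neurons analysed. They have no subtype in the deposited annotation. The pattern was also found in 3 inhibitory neurons, in 6 excitatory neurons without a subtype and in 9 cells of the joined matrix with no annotation.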

How the results depend on the processing

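Of 189 values recomputed under an alternative, 154 kept their direction or their size, 28 moved and 7 turned their direction. This tally does not measure stability. For means over the 3 mice, the 3 unsorted mice alone repeat the reported value. For other results they repeat the value without the FAC-sorted pool. The share of AI neurons with DMS counted as kept at 37.4% with thresholds from non-neuronal cells, against 53.5% as reported. So did the L5-S100b difference from DMS only neurons with UMIs of at least 2 reads (9.14 ± 42.1, higher in 1 of 3 libraries). A test over 4 libraries has no p under 0.125, so none of the tests bears on stability. The alternative with thresholds scaled after reassignment was chosen after seeing the data.

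Thresholds taken from the non-neuronal cells alone were lower than the study's for every barcode, so no neuron lost AI or DMS with them. A member could leave the class there only where a further barcode (MD, BLA or LH) became valid. The count of 306 AI+DMS neurons was 115 with thresholds taken from the non-neuronal cells alone, 135 with all thresholds 1.5 times as high, 31 with UMIs of at least 2 reads, 107 with shared UMIs given to the barcode with most reads, 120 with thinned reads and 551 with the cells missing from the joined matrix and all cell types kept. The share of DMS neurons with AI (35.7%) was 21.8%, 19.3%, 6.91% and 10.0% in the first 4 of these and 18.0% with reassigned UMIs and scaled thresholds. The share of AI neurons with DMS (53.5%) was 30.1% at 1.5 times the thresholds, 8.36% with UMIs of at least 2 reads, 24.4% with reassigned UMIs and 35.7% with scaled thresholds as well. The median AI percent (18.5%) was 26.9% with thresholds from non-neuronal cells, 25.5% at 1.5 times the thresholds and 31.7% with reassigned UMIs. The share of AI UMIs found with DMS (52.8%) was 42.5% with thresholds from non-neuronal cells, and 0 by construction once shared UMIs were reassigned. The 98 neurons left after reassignment were 46 with thresholds from non-neuronal cells, 38 at 1.5 times the thresholds, 9 with UMIs of at least 2 reads, 50 with thinned reads, 157 with scaled thresholds, 64 with shared UMIs dropped and 54 in the 3 unsorted mice. Leaving out 1 library gave 54 to 80, with 54 without the FAC-sorted pool.

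The depth ratio of AI+DMS to AI only neurons turned from 0.0268 (log2) to -0.0128 without the deepest neurons and -0.0135 in the unsorted mice alone, and within subtypes from 0.0298 to -0.0923 with UMIs of at least 2 reads, -0.0183 without the deepest neurons and -0.041 in the unsorted mice alone. Leaving out 1 library gave -0.0135 to 0.0604 and, within subtypes, -0.041 to 0.0558, with the lower end without the FAC-sorted pool. Other settings raised it: it was 0.187 with reassigned UMIs, 0.166 with scaled thresholds as well, 0.166 with thinned reads, 0.105 at 1.5 times the thresholds and 0.197 with UMIs of at least 2 reads, and within subtypes 0.171, 0.148, 0.0943 and 0.0896 in the first 4 of these. The cause was not tested in any of these. With UMIs of at least 2 reads, mouse 2 had no AI+DMS neuron and thus no AI percent or shared UMIs, and no mean over the 3 mice was taken. In mouse 1, mouse 3 and the FAC-sorted pool the AI percent was 25.7%, 29.6% and 24.4% and the shared part of the AI UMIs 48.8%, 61.2% and 51.0%. Every test paired its 2 values, of classes or of subtypes, within a library.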
